A study of Glycine soja with 4 samples.

Results

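The miRNAs miR162, miR168 and miR403 were examined in roots of wild soybean (*Glycine soja*) with and without aluminum (Al), because these miRNAs are known to regulate genes of the silencing machinery itself. Members were all listed sequences of the families miR162, miR168 and miR403, together with the genes listed as their targets. These were 4 of 217 distinct sequences and 1 of 78 target genes. Of the 4 sequences, 3 were found by their deposited names, PN-miR162, PN-mir162-p5 and PN-miR168 (PN is a prefix the study uses). No deposited name contains miR403. The fourth sequence was deposited as the predicted candidate PC-13-3p and is base for base the sequence that the study names PN-miR403a and PN-miR403b, so it is called PN-miR403a, b here, and the a and b members cannot be told apart by their reads.

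Plant miRNAs are cut from hairpin precursors by the RNase III enzyme DICER-LIKE1 (DCL1) and act after loading into an Argonaute (AGO) protein, most often AGO1, which slices messenger RNAs that pair with the miRNA. In Arabidopsis, miR162 guides the cleavage of the DCL1 messenger, miR168 that of AGO1 and miR403 that of AGO2, an Argonaute known for its part in antiviral defence. The first 2 pairs are feedback loops, since a miRNA limits the protein that makes or carries miRNAs.

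The sequences are shown because every count below belongs to one of them. They are written 5′ to 3′ as deposited, with T for U, and the capitals mark the seed, bases 2 to 8.

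PN-miR162: tCGATAAAcctctgcatccag

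PN-mir162-p5: tGGAGGCAgcggttcatcgatc

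PN-miR168: tCGCTTGGtgcaggtcgggaa

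PN-miR403a, b: tTAGATTCacgcacaaacttg

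PN-miR162, PN-miR168 and PN-miR403a, b were 21 nt long and PN-mir162-p5, the strand from the other arm of the miR162 hairpin, was 22 nt long. Of all 217 sequences 35.9% had 21 nt and 15.7% had 22 nt. All 4 began with T, as did 40.6% of all listed sequences. Their seeds differed from each other, and none was shared with another listed sequence. Of all sequences 14.7% shared theirs, so with only 4 sequences nothing particular to the group is read from this. PN-miR403a, b was the poorest of the 4 in G and C, at 38.1%, and PN-miR168 the richest, at 61.9%.

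Roots of the wild soybean strain BW69 grew in a solution of pH 4.5 that held 50 µM (Al-treated) or 0 µM (Al-free) AlCl3, and their apical 10 cm was collected 7 times, from 1 to 96 h. All times were pooled, and each condition gave 1 library of small RNAs and 1 of degradome tags, without replicates or a time course. Every interval below is a 95% interval for counting error alone and compares the reads of 2 libraries, not the conditions. Listed sequences held 44493 reads in total in Al-treated roots and 30411 in Al-free roots. A single miRNA, gso-miR2218, held 42.8% of that sum in Al-treated roots and 23.9% in Al-free roots, and it is outside the families described here.

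PN-miR403a, b rose in the Al-treated library, while PN-miR168 and PN-miR162 had fewer reads there and PN-mir162-p5 could not be told apart from no difference. Reads were normalized with the study's own factors, and the log2 ratio of Al-treated over Al-free reads was computed with its exact interval. A sequence passed the fold threshold when this ratio reached 1 or -1 and either library held 10 or more reads (20 for predicted candidates). All 4 sequences met the read minimum, PN-miR403a, b also under the higher one. PN-miR403a, b met it through the Al-treated library alone, with 44 reads there and 5 in the Al-free library.

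PN-miR403a, b had 44 reads in Al-treated roots (Poisson interval from 32.0 to 59.1) and 5 reads in Al-free roots (from 1.62 to 11.7). The 2 intervals did not overlap, which was also the case for PN-miR168. The share of such sequences in the whole list was not computed. Normalized reads were 41.6 in Al-treated and 5.28 in Al-free roots, 7.88 times as many (interval from 3.13 to 25.5). The log2 ratio was 2.98 (from 1.65 to 4.67), so the whole interval lay above the threshold of 1, and the width came from the 5 reads of the Al-free library. The sequence was in place 41 by abundance in the Al-treated library and in place 122 in the Al-free library, of 217 sequences. Only 3 of the 94 sequences that met the read minimum had a higher log2 ratio. These 94 take in sequences that met the minimum in 1 library alone, as PN-miR403a, b did, so its place partly reflects this filter.

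PN-miR168 was the most abundant of the 4, with 563 reads in Al-treated roots (from 517 to 611) and 850 reads in Al-free roots (from 794 to 909). Its log2 ratio was -0.75 (from -0.91 to -0.60), 0.593 times the Al-free level (from 0.532 to 0.661). The interval lay below 0 and wholly inside the fold threshold. PN-miR168 made up 1.27% of the listed reads of the Al-treated library and 2.80% of those of the Al-free library, place 14 and place 7 by abundance. With scaling by summed listed reads, to which gso-miR2218 contributed most, the log2 ratio was -1.14 and past the threshold.

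PN-miR162, the strand that pairs with the DCL1 messenger in Arabidopsis, had 35 reads in Al-treated roots (from 24.4 to 48.7) and 56 reads in Al-free roots (from 42.3 to 72.7). The log2 ratio was -0.84 (from -1.49 to -0.20). The interval lay below 0 and reached across the threshold of -1. The call turned with the scaling, since the log2 ratio was -1.23 by summed listed reads and -1.05 by the median of ratios.

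PN-mir162-p5 had 31 reads in Al-treated roots (from 21.1 to 44.0) and 18 reads in Al-free roots (from 10.7 to 28.4), with overlapping intervals. The log2 ratio was 0.63 (from -0.26 to 1.55), and neither an equal level nor a rise of 2-fold lay outside the interval.

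**Figure D1:**
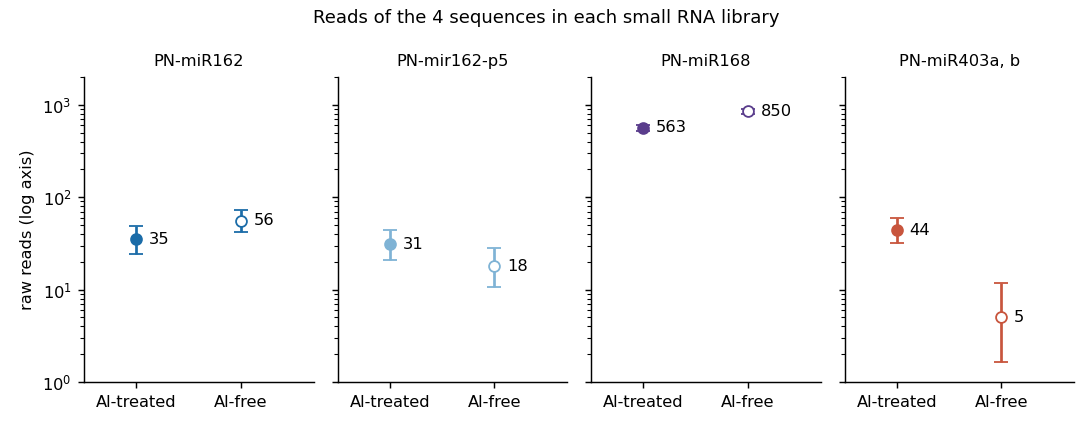
Raw reads (log axis) of PN-miR162, PN-mir162-p5, PN-miR168 and PN-miR403a, b in the Al-treated (filled) and Al-free (open) small RNA libraries; bars are 95% Poisson intervals of 1 count each. PN-miR403a, b had 44 and 5 reads and PN-miR168 had 563 and 850, each with intervals that do not overlap. PN-miR162 had 35 and 56 and PN-mir162-p5 had 31 and 18, each with overlapping intervals.

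Among all 94 sequences that met the read minimum, 25.5% passed the threshold upward and 13.8% downward. Of the 4 sequences, 1 passed upward and 0 downward. By the second rule, an interval on one side of 0, 30.9% of the 94 were higher in the Al-treated library and 25.5% were lower. Of the 4 sequences 1 was higher (PN-miR403a, b) and 2 were lower (PN-miR168 and PN-miR162). With 4 sequences these counts are near the shares over the whole list, and nothing particular to the group is read from them. The median log2 ratio was -0.06 over the 4 and 0.21 over the 94 sequences.

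**Figure D2:**
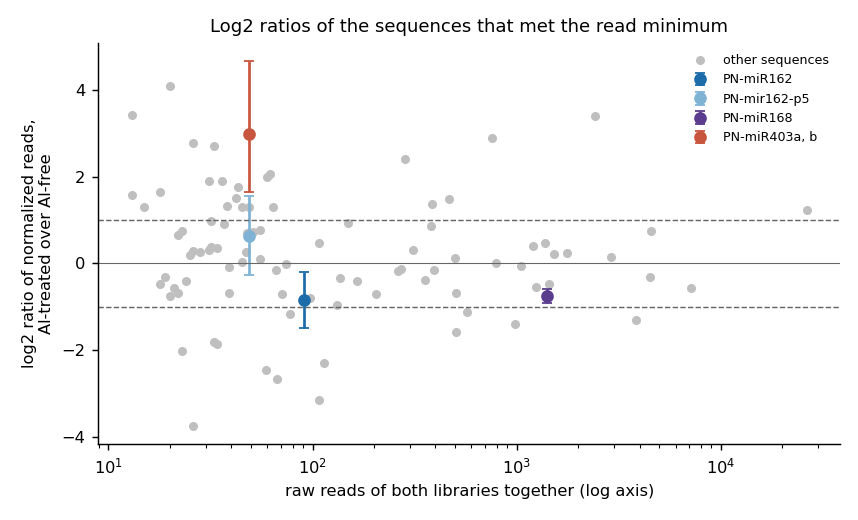
Log2 ratio (Al-treated over Al-free, normalized) against the raw reads of both libraries together (log axis) for the 94 sequences that met the read minimum. Coloured points are the 4 sequences with 95% intervals of counting error, grey points the others, and dashed lines the thresholds of 1 and -1; PN-miR403a, b, at 2.98, is the only one of the 4 beyond a dashed line.

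The reads of all 4 sequences together were 673 in Al-treated and 929 in Al-free roots, 1.51% and 3.05% of the listed reads. PN-miR168 held 83.7% of the 673 and 91.5% of the 929, so that the summed log2 ratio of -0.62 (from -0.77 to -0.48) mostly followed it. Without PN-miR168 the others summed to 110 and 79 reads, and the log2 ratio of this sum was 0.32 (from -0.11 to 0.75).

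A ratio of 2 sequences within a library does not depend on how the libraries are scaled, so the 4 sequences were also compared with each other in all 6 pairs. In 5 pairs the odds ratio between the libraries had an interval without 1. The share among pairs of other listed sequences was not computed, so nothing particular to the group is read from this count. The pairs with PN-miR403a, b all use its same 5 Al-free reads and are not separate results. There were 0.0782 reads of PN-miR403a, b for each read of PN-miR168 in Al-treated roots and 0.00588 in Al-free roots, an odds ratio of 13.3 (from 5.23 to 43.1). Against PN-miR162 the odds ratio of PN-miR403a, b was 14.1 (from 4.85 to 48.9), and against PN-mir162-p5 it was 5.11 (from 1.58 to 19.2). The miRNA of AGO2 in Arabidopsis thus gained reads relative to each of the other sequences.

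PN-miR168 and PN-miR162, which target the messengers of AGO1 and DCL1 in Arabidopsis, kept nearly the same proportion to each other. There were 16.1 reads of PN-miR168 for each read of PN-miR162 in Al-treated roots and 15.2 in Al-free roots. The odds ratio was 1.060 with an interval from 0.673 to 1.69, which leaves room for a difference of more than 1.5-fold.

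**Figure D3:**
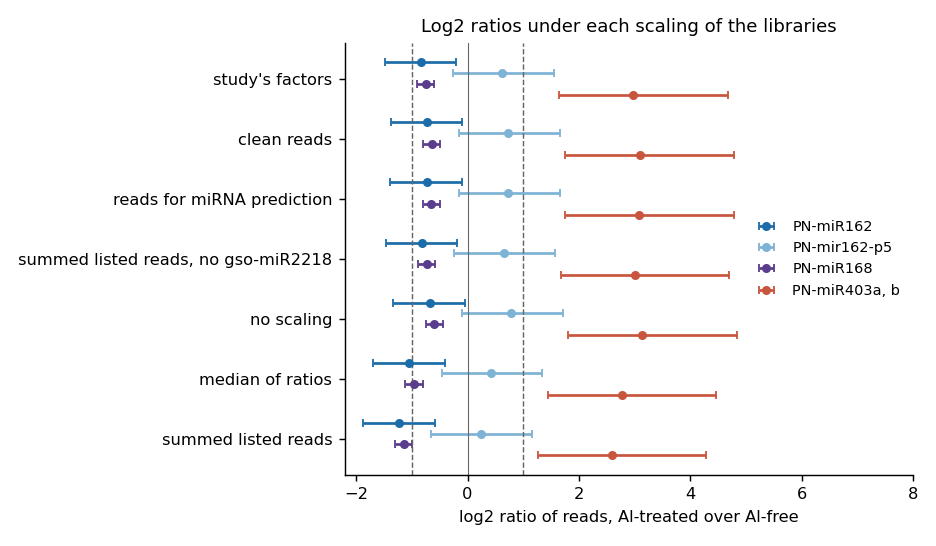
Log2 ratio of reads, Al-treated over Al-free, of the 4 sequences under each of 7 scalings of the libraries, with 95% intervals of counting error and dashed lines at 1 and -1. PN-miR403a, b stayed above 1 throughout, from 2.59 to 3.14, while PN-miR168 ran from -1.14 to -0.59 and PN-miR162 from -1.23 to -0.68, and PN-mir162-p5 had intervals across 0 throughout.

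The proportion of the 2 strands of the miR162 hairpin differed between the libraries. They are printed again with the bases that can pair with the other strand, in the ungapped alignment with most pairs, in capitals.

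PN-miR162: TCGATaAACCtCTGCaTCCAg

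PN-mir162-p5: TGGAgGCAGcGGTTcATCGAtc

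The strands had 17 paired bases, all Watson-Crick pairs, and an unpaired end of 1 base at the 3′ end of PN-miR162 and of 2 bases at that of PN-mir162-p5. PN-mir162-p5 made up 47.0% of the reads of both strands in Al-treated roots (exact interval from 34.6% to 59.7%) and 24.3% in Al-free roots (from 15.1% to 35.7%). The odds ratio was 2.76 (from 1.27 to 6.04), and it needs no scaling. PN-miR162 remained the more abundant strand by count in both libraries, with 35 against 31 reads in Al-treated and 56 against 18 reads in Al-free roots, though the Al-treated interval spanned equal shares.

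Strand proportions of other hairpins differed in both directions, more often with a higher share of the lesser strand in the Al-treated library. The lesser strand of a pair was the one with fewer reads over both libraries together. There were 27 pairs with reads of each strand in each library and at least 10 reads per library, and some of them share a sequence. The interval of the odds ratio of the lesser strand lay above 1 in 25.9% of the pairs, miR162 included, and below 1 in 11.1%, namely in mir2218, mir1509b and mir390b. The odds ratio was above 1 in 18 of the 27 pairs, miR162 included, and its median was 1.47. An odds ratio higher than that of miR162 was found in 6 pairs. The median share of the lesser strand was 4.83% in Al-treated and 2.61% in Al-free roots. The lesser strand had a higher share than PN-mir162-p5 in 2 of the 27 pairs in the Al-treated library and in 4 in the Al-free library.

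**Figure D4:**
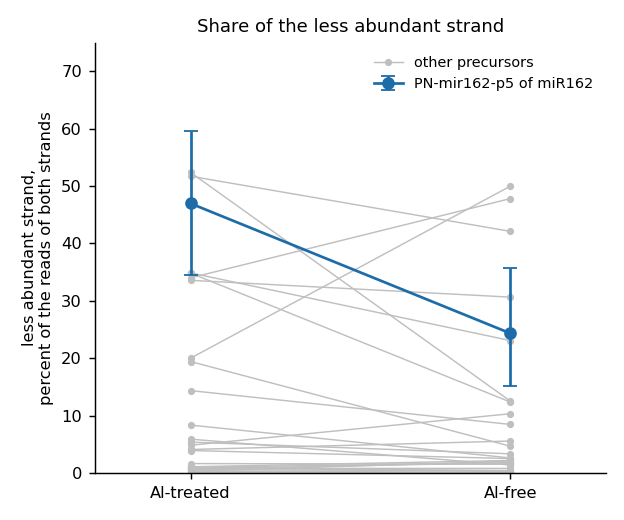
Share of the strand with fewer reads over both libraries, in percent of the reads of both strands, in the Al-treated and Al-free small RNA libraries. The blue line is PN-mir162-p5 with 95% exact intervals (47.0% and 24.3%), and the grey lines are the other 26 strand pairs with at least 10 reads in each library.

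Targets were read from the degradome libraries, in which 5′ ends of cut messengers are sequenced and matched to miRNAs. The deposited lists hold a miRNA name and a gene per line and no value, and presence alone was compared. Glyma20g02820 was the only gene listed for the 4 sequences. It was listed under PC-13-3p, the deposited name of PN-miR403a, b, on 1 line in the Al-treated list and 1 line in the Al-free list, and under no other miRNA. The study's annotation calls it a translation initiation factor 2C (eIF-2C), an older name of the Argonaute family. How often it was cut in each library was not analysed here.

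Of the 78 genes over both lists, 42.3% were listed in both libraries, 37 genes only in the Al-treated list and 8 only in the Al-free list. PN-miR403a, b was 1 of 6 miRNA names with a single gene over both lists, of 23 names in all. No gene was listed for PN-miR162, PN-mir162-p5 or PN-miR168 in either list, so no cleavage of a DCL1 or AGO1 messenger was read from these lists. Absence from a list does not show that a messenger was not cut.

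Other miRNAs that lead to the products of Dicer-like and Argonaute proteins are those that trigger secondary siRNAs. In this list of miR390, miR393, miR482, miR1507, miR1509, miR1510, miR1514, miR2109 and miR2218, 21 of 27 sequences met the read minimum, with a median log2 ratio of 0.14. Of these, 6 (28.6%) rose past the threshold and 2 (9.52%) fell, near the 25.5% and 13.8% of all 94 sequences, so the list did not stand out. Both arms of each hairpin were counted, and 3 of the 8 sequences past the threshold were strands named by their arm. PN-miR390b, which in Arabidopsis acts through AGO7, had 36 reads in Al-treated and 13 in Al-free roots, a log2 ratio of 1.31 (from 0.36 to 2.35). PN-miR1514a had 51 and 11 reads (log2 ratio 2.05, from 1.10 to 3.14), and this interval overlapped that of PN-miR403a, b. The study reports that its qRT-PCR of PN-miR1514a did not match the sequencing result. PN-miR1509b, with 2232 and 190 reads, had a log2 ratio of 3.40, and gso-miR2218, with 19061 and 7282 reads, one of 1.23. The others that rose were the strands gso-mir1510a-p5, with 25 and 6 reads (1.90), and gso-mir1509a-p3, with 34 and 9 reads (1.76). Those that fell were PN-miR1507c, with 194 and 377 reads (-1.12), and gso-mir2109-p3, with 1201 and 2655 reads (-1.30).

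The sequences with the log2 ratios nearest to the 4 were found by the difference in log2 ratio, over only 2 libraries and among sequences other than the 4 themselves. Nearest to PN-miR403a, b were PN-miR396a-1, with 676 reads in Al-treated and 81 in Al-free roots (2.90), and PN-miR4369, with 23 and 3 reads (2.78). PN-miR168 and PN-miR162 had the same 2 neighbours, PN-miR172 with 8 and 12 reads (-0.74) and PN-miR482c-5p with 38 and 59 reads (-0.79). The intervals ran from -2.24 to 0.67 for PN-miR172 and from -1.42 to -0.18 for PN-miR482c-5p, so a shared neighbour does not show shared behaviour. Nearest to PN-mir162-p5 were PN-miR1513b with 14 and 8 reads (0.65) and PN-miR2111a with 31 and 17 reads (0.71). Their intervals, from -0.70 to 2.11 and from -0.19 to 1.65, both spanned 0.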

How the data were processed

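The authors removed adaptor-less, short and junk reads and matches to Rfam and repeats, then reads that aligned to mRNAs, and matched what remained to miRBase or predicted candidates on the *G. max* genome with ACGT101-miR 4.2. They deposited raw read counts per name and sequence, without normalization. Targets were called by the authors with CleaveLand 3.0 and ACGT301-DGE 1.0 and deposited as lists of a name and a gene.

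Each distinct sequence was counted once. The supplementary sequences of the study tied predicted candidates to known names. Log2 ratios used 1 factor per library, the study's normalized over raw reads, whose method is not given in the sources used here. Intervals (95%) were exact Clopper-Pearson, Poisson or conditional odds ratio intervals from SciPy 1.17.1 in Python 3.11.15. The log2 ratio intervals and fold calls were tested on simulated counts with counting error alone, which does not cover variation between libraries. No p-value was computed, since each condition had 1 library. Alternatives were other scalings, read minimums, a fold of 1.5, counting names and an added read. The members and lists were chosen with earlier results of these data known. The named miRNAs were all members, the 2 sequences nearest to each in log2 ratio, gso-miR2218, and the secondary siRNA list past the threshold. No identifier of the 78 targets was found among 59365 reference entries (ASM419377v2), so no genome position is given.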

Additional observations from a re-analysis of the deposited data

How the results depend on the processing

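Of 84 values under alternative settings 68 stayed within the interval, or for counts within 1.5 times, of the value reported, and 16 moved beyond it. Odds ratios were judged by whether their interval still held or left out 1. The 68 include PN-miR162 at -1.23 by summed listed reads and -1.05 by the median of ratios, both past the threshold of -1. They also include values that could not differ, since summing by miRNA number and strand left each of the 4 sequences unchanged. Direction was not compared for counts and shares, so no count of reversals is given. The log2 ratio of PN-miR168 was -1.14 by summed listed reads, -0.96 by the median of ratios and -0.59 without scaling. Of the 4 sequences, 2 were past the threshold downward by summed listed reads and 1 by the median of ratios. At a fold of 1.5 the 4 sequences gave 2 upward and 2 downward, and at a minimum of 50 reads 0 upward, since PN-miR403a, b then no longer met the minimum. Without a read minimum 53 of all sequences were counted upward and 33 downward, with a count of 0 taken as 3 reads. A sequence with 0 reads in 1 library and 1 in the other was then counted as higher in the library with 0. These counts therefore include calls in the wrong direction. Over all sequences 7 were upward and 8 downward at a minimum of 50 reads. With the minimum in both libraries they were 10 and 8, against 24 and 13 as reported. The downward count was 23 by summed listed reads and 23 at a fold of 1.5. No paired analysis was possible because each condition had 1 library of each kind. Depth limited PN-miR403a, b most, with 5 reads in the Al-free library. It does not meet a minimum of 10 reads in both libraries, and the only upward call of the 4 sequences is lost under that setting.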

Other observations

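In a list of 20 miRNA numbers, which leaves out miR162, miR168 and miR403, 28 of 52 sequences met the read minimum, 4 rose and 4 fell past the threshold (14.3% each, against 25.5% upward and 13.8% downward of all 94 sequences), and the median log2 ratio was 0.02. This list shares miR390 and miR393, PN-miR390b among them, with the secondary siRNA list. By the interval rule 7 had more reads in Al-treated roots and 7 had fewer. These values are a description of 2 libraries.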
